A study of Mus musculus with 12 samples.

Results

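The miR-15, miR-16, miR-195 and miR-322 family was examined in small RNA libraries made from mitochondria of mouse hearts. The 9 members were taken by name from a table of 932 rows, of which 730 carry a mouse miRNA name. They are the guide arms mmu-miR-15a-5p, mmu-miR-15b-5p, mmu-miR-16-5p, mmu-miR-195a-5p, mmu-miR-497a-5p, mmu-miR-322-5p and mmu-miR-503-5p, with the opposite arms mmu-miR-322-3p and mmu-miR-503-3p, written below without the species prefix. Guide arm here names the 5p arm of a precursor, whether or not it had more reads than the opposite arm. All 9 were listed, 8 were above 0 in every library, and all 9 had the mean of at least 1 RPM needed to enter the test.

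A miRNA is cut as a short duplex from a hairpin precursor, and the strand kept in Argonaute pairs with messenger RNAs mainly through its seed, the bases near its 5′ end. The guide arms of this family share most of that seed and are known as brakes on the cell cycle, acting on cyclins and checkpoint kinases, and as repressors of the survival gene Bcl2. In the mouse heart miR-195 is known to rise as cardiomyocytes stop dividing after birth, and in rat cardiomyocytes the family was described as acting on Arl2, a small GTPase found in mitochondria, and on cellular ATP.

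The study compared 6 libraries from db/db mice with 6 libraries from WT mice. db/db mice lack the signalling form of the leptin receptor in all tissues and become obese and diabetic. The labels give no age, sex, strain or treatment for either genotype. Samples carry the numbers 1 to 6 within each genotype, and nothing in the labels names separate animals. A p-value here therefore reflects sample-to-sample spread, part or all of which may be technical. Values are in RPM, the reads of a miRNA scaled to a library total of 1000000 over all listed rows. The recovered depth ran from 412749 to 1382046 reads, so that 1 read was worth 0.724 to 2.42 RPM, and a listed 0 allows up to 3 reads, or 2.17 to 7.27 RPM. db/db library 6 and WT library 4 had the fewest reads of their genotypes and lay farthest out on the leading principal components. Without both of them 0 of 9 members were called in either direction, and so were 0 of the 624 rows then tested. The libraries were rich in 1 muscle miRNA, miR-133a-3p, at 341153 ± 27552 RPM in db/db and 323867 ± 22817 RPM in WT libraries (SD, n = 6 each). No other cell fraction was measured, so location in mitochondria was not tested.

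The mature sequences show how closely the guide arms resemble each other. They are given 5′ to 3′ from RefSeq (GRCm38.p6), with the seed, bases 2 to 8, in capitals.
miR-16-5p: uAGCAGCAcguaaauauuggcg
miR-195a-5p: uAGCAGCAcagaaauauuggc
miR-15a-5p: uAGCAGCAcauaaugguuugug
miR-15b-5p: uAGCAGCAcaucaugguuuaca
miR-497a-5p: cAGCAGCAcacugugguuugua
miR-322-5p: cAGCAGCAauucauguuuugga
miR-503-5p: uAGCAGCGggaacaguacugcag
miR-322-3p: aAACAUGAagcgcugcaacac
miR-503-3p: gAGUAUUGuuuccacugccugg

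The first 6 guide arms had 1 seed in common, AGCAGCA, which pairs with UGCUGCU in a target. In RefSeq 10 mouse miRNAs carried that seed, and the 6 members were the only ones of them listed in the table. miR-503-5p differed in the last seed base (AGCAGCG), and each opposite arm had a seed found in no other mouse miRNA of the RefSeq table. The closest pair was miR-195a-5p and miR-16-5p. Counted from the 5′ end of miR-195a-5p, they differed by A10G and G11U over 21 bases, and miR-16-5p ended 1 base later. miR-15a-5p and miR-15b-5p were the same at 18 of 22 bases. How reads with mismatches were assigned is not given in the sources used here, so reads may have moved between such close sequences.

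The members come from 8 precursors at 4 places in the genome (GENCODE M21, GRCm38, a build other than the GRCm39 named in the submitters' processing notes). Mir15b (chr3:69009772-69009835) and Mir16-2 (chr3:69009902-69009996) lie 66 bases apart on the plus strand, in an intron of Smc4, which encodes a condensin subunit. Mir16-1 (chr14:61631880-61631972) and Mir15a (chr14:61632027-61632110) lie 54 bases apart on the minus strand within the noncoding gene Dleu2, Mir15a in an intron and Mir16-1 overlapping an exon of at least one transcript. Mir497 (chr11:70234717-70234800) and Mir195a (chr11:70235042-70235135) are separated by 241 bases on the plus strand. Mir503 (chrX:53053984-53054054) and Mir322 (chrX:53054255-53054349) are 200 bases apart on the minus strand. No host gene was annotated around either of these last pairs. miR-16-5p is made with one sequence from both Mir16-1 and Mir16-2, so its reads cannot be assigned to a locus.

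Together the 9 members held 0.665% ± 0.105 of reads in db/db and 0.792% ± 0.128 in WT libraries (SD, n = 6 each). miR-16-5p alone made up 54.7% ± 2.45 of the members' reads in db/db and 54.6% ± 1.59 in WT libraries. Ordered by mean RPM over the 12 libraries, miR-16-5p (3982 RPM) was followed by miR-15b-5p (1365), miR-195a-5p (783), miR-322-3p (418), miR-497a-5p (248), miR-15a-5p (235), miR-322-5p (138), miR-503-5p (109) and miR-503-3p (11.3). All are 21 to 23 bases long, but ligation favours some ends over others, so this order is one of reads and not of molecules. miR-497a-5p exceeded miR-15a-5p in 7 of 12 libraries, and miR-322-5p exceeded miR-503-5p in 7 of 12, so these neighbours did not differ beyond their spread. Every other neighbour in the order kept its place in at least 11 of 12 libraries.

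**Figure D1:**
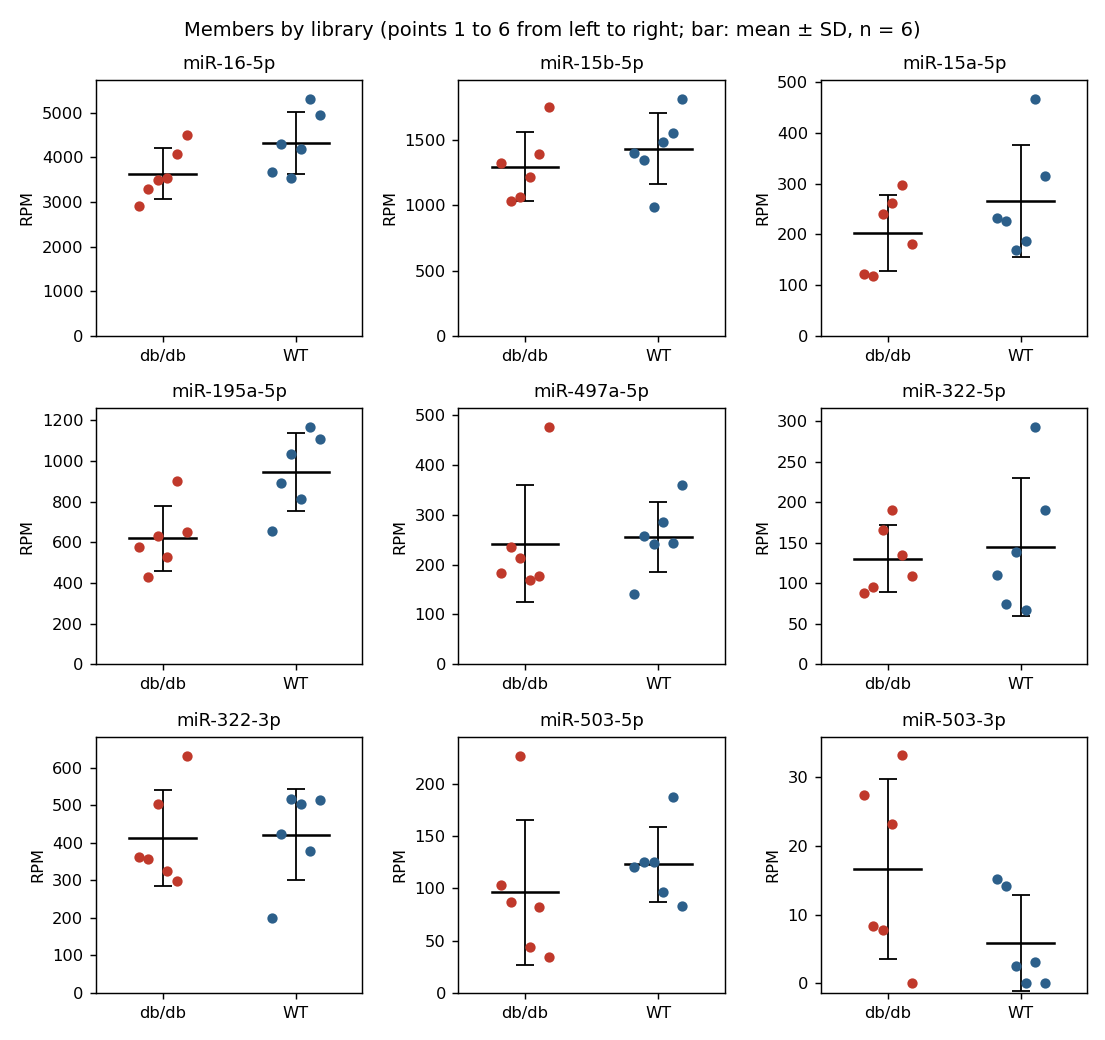
RPM of each of the 9 members in db/db (left, red) and WT libraries (right, blue), each axis reaching 0. Points are libraries 1 to 6 from left to right and bars are mean ± SD (n = 6). For miR-195a-5p 5 db/db libraries lie below the lowest WT library, while for the other members the genotypes overlap more.

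Setting db/db against WT addresses how these miRNAs differ in the hearts of this diabetic model. The guide arms stood lower on average in db/db libraries, by most for miR-195a-5p, but no member passed the threshold. With limma over 646 rows, called at a Benjamini-Hochberg adjusted p under 0.05, 0 of 9 members were lower and 0 were higher, against 0.155% of all rows lower and 0% higher. At an unadjusted p under 0.05, 1 member was lower (miR-195a-5p), against 4.64% of all rows lower, and 0 were higher, against 4.33%. On recovered reads edgeR called 0 members in either direction, against 0.155% of all rows lower and 0.310% higher. At an unadjusted p under 0.05 it had 1 member lower (miR-195a-5p), against 12.5% of all rows lower, and 0 higher, against 12.1%. DESeq2 called 0 of the 8 members it gave an adjusted p, against 1.18% of the 170 rows given an adjusted p lower and 3.53% higher. It gave no adjusted p for miR-503-3p, which could therefore not be called. At an unadjusted p under 0.05 it had 1 member lower (miR-195a-5p), against 3.37% of rows, and 0 higher, against 3.85%. Negative log2 fold changes were found for 8 of 9 members, against 52.3% of all rows. Their median was -0.14, against -0.039 over all rows and -0.022 over the 147 rows averaging 100 RPM or more. After median-of-ratios or TMM scaling 6 of 9 were negative, because both arms of miR-322, which lay near 0, changed sign.

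**Figure D2:**
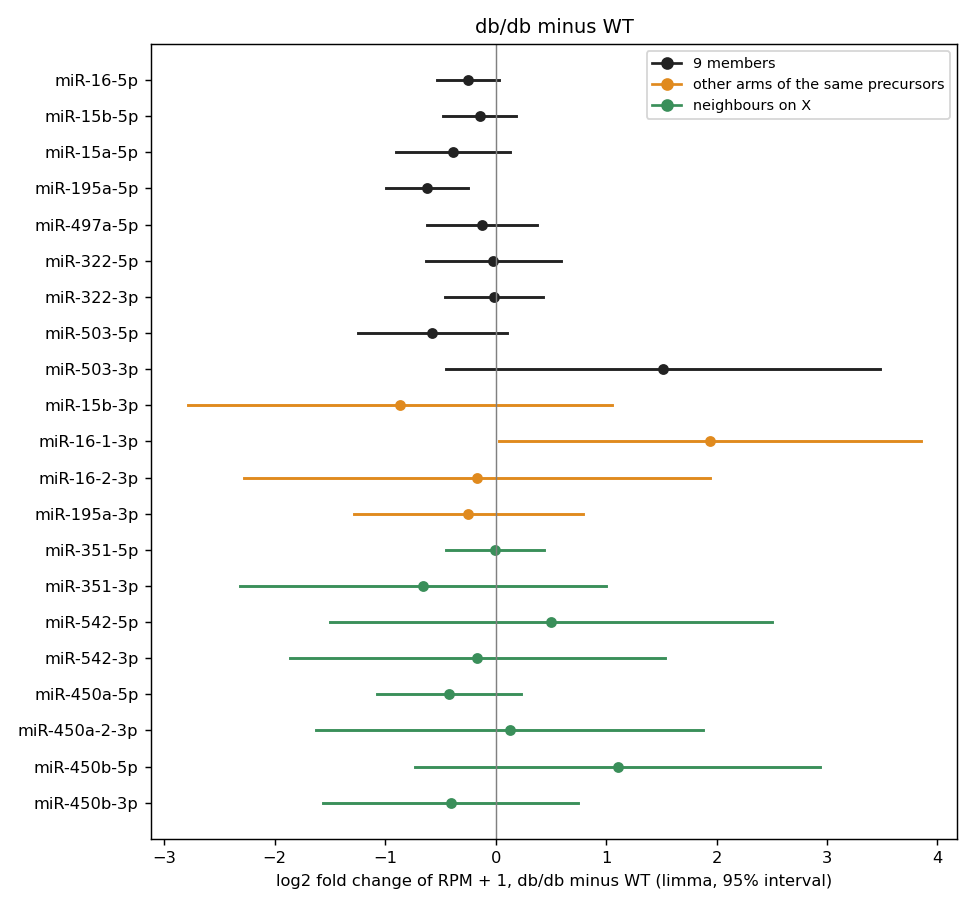
log2 fold change of RPM + 1, db/db minus WT, with the 95% interval from limma (n = 6 each) for the 9 members, the other arms of the same precursors and the neighbours of miR-322 and miR-503 on X. Among the members the interval of miR-195a-5p alone lies wholly below 0, before adjustment for the number of rows tested.

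miR-195a-5p, the member best known from the failing and the newborn heart, had a lowest, median and highest value of 430, 604 and 902 RPM in db/db libraries, against 657, 962 and 1167 RPM in WT libraries. Every db/db library was under the WT median and 5 of 6 were under the lowest WT library, db/db library 5 being the exception. The means were 620 ± 160 RPM in db/db and 945 ± 193 RPM in WT libraries (SD, n = 6 each). The fitted log2 fold change was -0.62 ± 0.18 (SE; 95% interval -0.99 to -0.25; limma adjusted p = 0.109). It rested on 269 to 1246 reads per library. From the recovered reads edgeR gave -0.57 (adjusted p = 0.135) and DESeq2 -0.55 (adjusted p = 0.0649). The value kept its sign under all 24 alternatives, from -0.73 to -0.52, with adjusted p from 0.0234 to 0.691. Without db/db library 6 and WT library 4 it was -0.68 (limma adjusted p = 0.108). It passed the threshold in 4 alternatives, among these without db/db library 5 (-0.73, limma adjusted p = 0.0272) and without WT library 1 (-0.72, limma adjusted p = 0.0364). Each library pools mitochondria from the many cells of heart tissue, and no other cell fraction was measured. Fewer cells of a type, less of the RNA per cell and less of it in the mitochondrial preparation cannot be told apart.

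The other strand of the same duplex was scarce. miR-195a-3p averaged 23.7 ± 5.85 RPM in db/db and 32.6 ± 20.3 RPM in WT libraries (SD, n = 6 each), from 257 reads in all, and its fitted change was -0.25 ± 0.52 in log2 (SE; limma adjusted p = 0.856). miR-497a-5p, from the precursor next to Mir195a, had a lowest, median and highest value of 169, 198 and 475 RPM in db/db libraries, against 142, 250 and 359 RPM in WT libraries. The genotypes overlapped across their range, with db/db library 6 above all others. Its log2 fold change was -0.12 ± 0.25 (SE; 95% interval -0.62 to 0.37; limma adjusted p = 0.843). Leaving out db/db library 6 gave -0.34 (limma adjusted p = 0.746). With any one library left out it ran from that value to -0.016, the value nearest 0 coming without WT library 6.

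miR-16-5p, the most abundant member and with miR-15a known for its loss in human leukaemia, ran lowest to highest from 2908 to 4506 RPM in db/db libraries (median 3517), against 3536 to 5315 RPM in WT libraries (median 4243). The ranges overlapped, with 5 of 6 db/db libraries below the WT median. Its log2 fold change was -0.25 ± 0.14 (SE; 95% interval -0.53 to 0.03; limma adjusted p = 0.717), and -0.32 without db/db library 6 and WT library 4 (limma adjusted p = 0.617). miR-15b-5p, which shares the Smc4 intron with one miR-16 copy, ran from 1031 to 1752 RPM in db/db libraries (median 1272), against 990 to 1816 RPM in WT libraries (median 1444). The WT range enclosed that of db/db libraries, and the fitted change was -0.14 ± 0.17 in log2 (SE; limma adjusted p = 0.724).

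miR-15a-5p, from the Dleu2 locus, had a lowest, median and highest value of 117, 211 and 298 RPM in db/db libraries, against 170, 230 and 467 RPM in WT libraries. The genotypes overlapped, with db/db libraries 1 and 2 below every WT library and WT libraries 5 and 6 above every db/db library. Its log2 fold change was -0.39 ± 0.26 (SE; 95% interval -0.91 to 0.13; limma adjusted p = 0.717).

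The opposite arms of these precursors, which could tell the miR-16 loci apart, were near the floor. miR-15a-3p was listed at 0 in all 12 libraries and miR-15b-3p had 71 reads in all. miR-16-2-3p, from the Smc4 locus, had 39 reads summed over the db/db libraries and 48 over the WT libraries, and was above 0 in 4 libraries of each genotype. miR-16-1-3p, from the Dleu2 locus, had 35 reads over 4 db/db libraries and 3 reads in 1 WT library. Of the 8 further arms and copies looked for, 5 were listed and 4 entered the test. Of these 0 passed, against 0.155% of all rows lower and 0% higher. At an unadjusted p under 0.05 there was miR-16-1-3p alone, higher, against 4.33% of all rows. It met the filter of 1 RPM only through its level in db/db libraries, so nothing is read from that count.

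The miR-322 and miR-503 precursors on X are a cluster known to restrain the cell cycle during muscle differentiation. In the hairpin of each, from RefSeq (GRCm38.p6), the 2 listed arms are in capitals, the 5p arm first.
Mir322: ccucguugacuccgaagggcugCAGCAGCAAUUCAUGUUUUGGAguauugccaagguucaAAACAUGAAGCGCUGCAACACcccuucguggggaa
Mir503: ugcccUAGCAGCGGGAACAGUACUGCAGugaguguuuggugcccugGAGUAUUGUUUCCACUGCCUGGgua

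The arm with the family seed was the rarer one for miR-322. miR-322-3p exceeded miR-322-5p in 6 of 6 db/db and 6 of 6 WT libraries, with a median ratio of 3.36 in db/db libraries (1.69 to 5.76) and 3.20 in WT libraries (1.29 to 7.39). miR-322-5p had a lowest, median and highest value of 88.0, 122 and 191 RPM in db/db libraries, against 67.1, 124 and 293 RPM in WT libraries. miR-322-3p had 298, 360 and 632 RPM in db/db libraries, against 200, 463 and 517 RPM in WT libraries. The genotypes overlapped for both arms. Their log2 fold changes were -0.019 ± 0.31 and -0.016 ± 0.22 (SE; limma adjusted p = 0.987 for each), with 95% intervals of -0.63 to 0.59 and -0.46 to 0.43. The difference between the arms, as a log2 ratio, was 0.0025 ± 0.47 (SE) between the genotypes, and its sign turned in 6 of the 12 fits with a library left out.

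For miR-503 the 5p arm was the commoner. miR-503-5p had a lowest, median and highest value of 33.9, 84.8 and 227 RPM in db/db libraries, against 82.9, 123 and 187 RPM in WT libraries. The ranges overlapped, yet db/db libraries 4 and 6 lay below every WT library, and db/db library 3 lay above every WT library. At 82.5 RPM, db/db library 5 was level with the lowest WT library at 82.9 RPM, since 1 read was worth 0.724 RPM in db/db library 5. The log2 fold change of miR-503-5p was -0.57 ± 0.34 (SE; 95% interval -1.24 to 0.10; limma adjusted p = 0.717), and it was -0.33 by edgeR (adjusted p = 0.686). It was 0.040 within libraries 1 to 3 and -1.18 within libraries 4 to 6 (limma adjusted p = 0.984 and 0.706), and -0.87 without db/db library 3. miR-503-3p had 96 reads summed over the db/db libraries, 5 of 6 of them above 0, and 24 reads over the WT libraries, 4 of 6 above 0. It had a lowest, median and highest value of 0, 15.8 and 33.3 RPM in db/db libraries, against 0, 2.81 and 15.3 RPM in WT libraries. Its log2 fold change was 1.51 ± 0.98 (SE; 95% interval -0.45 to 3.48; limma adjusted p = 0.717), and db/db library 6, with the fewest reads, was listed at 0. Over the alternatives that gave it an adjusted p the value ran from 0.69 to 2.21, the highest without db/db library 6.

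The other miRNAs of this X cluster ran from 0.953 to 425 RPM in mean over the 12 libraries, and 5 of the 9 lay below the mean of miR-503-3p. The 2 most abundant are given in full. miR-351-5p, next to miR-503, averaged 423 ± 125 RPM in db/db and 427 ± 147 RPM in WT libraries (SD, n = 6 each), a fitted change of -0.0075 ± 0.22 in log2 (SE). miR-450a-5p averaged 81.8 ± 45.4 RPM in db/db and 103 ± 26.7 RPM in WT libraries (SD, n = 6 each), a fitted change of -0.42 ± 0.33 in log2 (SE; limma adjusted p = 0.717). Of the 9 neighbours looked for all were listed and 8 entered the test. None passed, against 0.155% of all rows lower and 0% higher. At an unadjusted p under 0.05, 0 were lower, against 4.64% of all rows, and 0 were higher, against 4.33%. Negative values were found for 5 of 8, against 52.3% of all rows. The median was -0.087, against -0.039 over all rows.

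Whether members differed from each other in their change was asked through 7 ratios of RPM + 1 within each library. Scaling a whole library moves such a ratio little where both members lie far above the added 1 RPM. None of the ratios passed after adjustment over the 7. The ratio of miR-195a-5p to miR-16-5p had a lowest, median and highest value of 0.131, 0.165 and 0.221 in db/db libraries, against 0.179, 0.214 and 0.292 in WT libraries. It was below the WT median in 5 of 6 db/db libraries and below every WT library in 3, a difference of -0.37 ± 0.16 in log2 ratio (SE; exact permutation test over all assignments of the 12 libraries, two-sided, p = 0.0498, adjusted p = 0.235). The ratio of miR-195a-5p to miR-497a-5p, its neighbour, differed by -0.49 ± 0.30 (SE; exact permutation test, two-sided, p = 0.160, adjusted p = 0.374). miR-503-3p over miR-503-5p differed by 2.09 ± 0.98 (SE), on the few reads given above, and by 1.19 with 10 RPM added in place of 1. miR-503-3p reached the mean of 10 RPM set for ratios only through its level in db/db libraries, so no test is read for this ratio. The p of this ratio still entered the adjustment over the 7. Without it the adjusted p of miR-195a-5p over miR-16-5p would be larger. The differences for miR-15a-5p over miR-15b-5p, miR-15b-5p over miR-16-5p and miR-322-5p over miR-16-5p were -0.24 ± 0.30, 0.11 ± 0.12 and 0.23 ± 0.34 (SE; exact permutation test, two-sided, adjusted p = 0.576, 0.576 and 0.581). These tests do not show that the members moved alike.

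**Figure D3:**
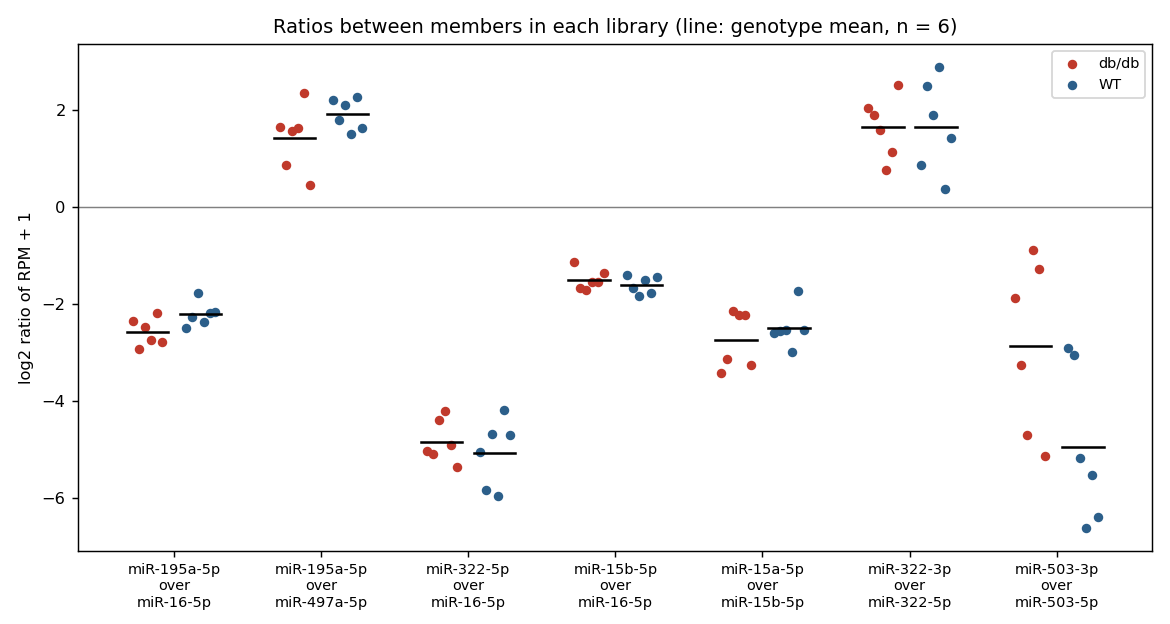
log2 ratio of RPM + 1 between 7 pairs of members in each library, db/db (red, left) and WT (blue, right), with the mean of each genotype as a line (n = 6). The points of miR-322-3p over miR-322-5p lie above 0 in all 12 libraries, and those of miR-195a-5p over miR-16-5p lie lower in db/db libraries with overlap.

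Over the 12 libraries, members from 1 precursor or 1 place did not always rise and fall together. As a description, the Pearson correlation of log2(RPM + 1) was 0.73 between miR-15b-5p and miR-16-5p and 0.75 between miR-15a-5p and miR-16-5p. It was 0.29 between miR-195a-5p and miR-497a-5p, 0.51 without WT library 4 and db/db library 6, and -0.029 between the arms of miR-322 (0.20 without those 2). The highest among members was 0.85 for miR-497a-5p and miR-322-3p, which come from different chromosomes. Without those 2 libraries it was 0.80, and the highest was 0.86 for miR-15a-5p and miR-16-5p. Among the 145 other named miRNAs with a mean of at least 100 RPM, those most like miR-195a-5p were miR-143-3p (r = 0.90), miR-22-3p (0.89) and miR-223-3p (0.87), known from smooth muscle, muscle and myeloid cells. Taken about the genotype means, these values were 0.81, 0.76 and 0.72. miR-16-5p was most like the endothelial miR-126a-3p (r = 0.96), then miR-378a-3p (0.92) and miR-143-3p (0.88). miR-15b-5p was also closest to miR-378a-3p (r = 0.87), and miR-15a-5p to miR-106b-5p (0.85). All points share a library total, depth differed between libraries, and the counts of the rarer members are small.

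Markers of other cells were set beside these values, and their part in the value of miR-195a-5p was not tested. The 7 smooth muscle and fibroblast miRNAs, all listed, summed to 25045 to 39793 RPM in db/db and 34659 to 47920 RPM in WT libraries. Of these 5 had negative log2 fold changes, among them miR-143-3p (-0.48 ± 0.13, SE; limma adjusted p = 0.0869), and 0 passed. The other 2 had positive values, miR-214-3p at 0.45 ± 0.22 (SE; limma adjusted p = 0.543) and miR-199a-3p at 0.06 ± 0.14 (SE; limma adjusted p = 0.883). The pair of endothelial miRNA arms summed to 15588 to 25095 RPM in db/db and 18852 to 29569 RPM in WT libraries. Both had negative values, miR-126a-3p at -0.30 ± 0.14 (SE; limma adjusted p = 0.504) and miR-126a-5p at -0.11 ± 0.15 (SE; limma adjusted p = 0.747). The 4 myeloid and lymphoid miRNAs summed to 2907 to 6701 RPM in db/db and 3225 to 5087 RPM in WT libraries, and 2 of the 4 had negative values, miR-223-3p at -0.72 ± 0.22 (SE; limma adjusted p = 0.109) and miR-142a-3p at -0.91 ± 0.98 (SE; limma adjusted p = 0.717). Positive values were found for the other 2, miR-150-5p at 0.20 ± 0.16 (SE; limma adjusted p = 0.717) and miR-142a-5p at 0.16 ± 0.40 (SE; limma adjusted p = 0.890). The 3 red cell miRNAs summed to 293 to 3852 RPM in db/db and 895 to 1717 RPM in WT libraries. Of these miR-451a (0.26 ± 0.27, SE) and miR-144-3p (0.60 ± 0.87, SE) had positive values, and miR-144-5p a negative one (-0.53 ± 0.63, SE). The 4 muscle miRNAs summed to 337987 to 439537 RPM in db/db and 366749 to 420533 RPM in WT libraries, most of it miR-133a-3p (0.07 in log2). The other 3 had negative values, with miR-208a-3p at 29.6 ± 17.1 RPM in db/db and 68.6 ± 42.4 RPM in WT libraries (SD, n = 6 each). Its log2 value was -1.34 ± 0.55 (SE; limma adjusted p = 0.504). No marker list summed to 0 in any library, and 0 markers of any list passed the test without the number groups described below.

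The label numbers 1 to 3 and 4 to 6 mark a grouping noticed in earlier work on these data, which the labels do not explain. All 6 guide arms with the shared seed stood higher in libraries 4 to 6, by log2 values of 0.30 to 0.61 with genotype in the model. Of all 646 rows, 304 stood higher there. After adjustment 0 of 9 members were called, against 1.24% of all rows higher and 1.39% lower. Before adjustment, 3 members were higher at a p under 0.05, against 4.49% of all rows, and 1 was lower (miR-503-5p), against 5.88%. miR-15a-5p averaged 247 RPM in db/db libraries 4 to 6 and 160 RPM in db/db libraries 1 to 3, and 323 RPM in WT libraries 4 to 6 and 210 RPM in WT libraries 1 to 3 (log2 difference 0.61 ± 0.23, SE; limma adjusted p = 0.182). miR-503-5p ran the other way, at -0.72 ± 0.31 (SE; limma adjusted p = 0.275). With this grouping as a factor, miR-195a-5p was called lower in db/db libraries (log2 fold change -0.62 ± 0.17, SE; limma adjusted p = 0.0392), 1 of 9 members against 0.929% of all rows lower, and 0 members were higher, against 0.619%. At an unadjusted p under 0.05, miR-16-5p was also lower, 2 of 9 members against 5.57% of all rows, and 0 members were higher, against 4.64%. Within libraries 1 to 3 the value of miR-195a-5p was -0.65 (limma adjusted p = 0.182) and within libraries 4 to 6 it was -0.59 (limma adjusted p = 0.706). In the same fit 2 of the cell markers were called lower, miR-143-3p (-0.48, limma adjusted p = 0.00155) and miR-223-3p (-0.72, limma adjusted p = 0.0480), and their part in the call of miR-195a-5p was not tested. The factor was picked with these data known, so the call is not independent support.

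**Figure D4:**
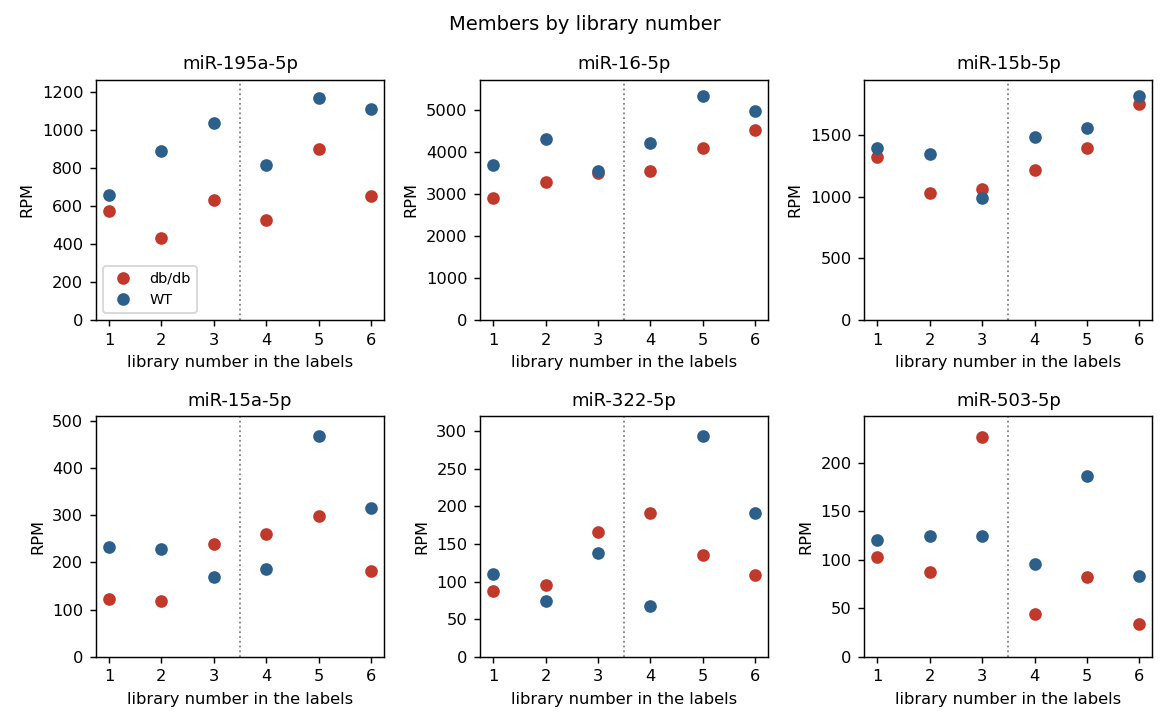
RPM of 6 members by the library number in the labels, db/db (red) and WT (blue), with a dotted line between numbers 3 and 4 and all axes from 0. miR-195a-5p averages lower in db/db libraries on both sides of the line, and miR-16-5p, miR-15b-5p and miR-15a-5p average higher to the right of it in both genotypes.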

How the data were processed

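Small RNA of cardiac mitochondria was sequenced in 6 db/db and 6 WT samples, with adapters ligated to both RNA ends per the labels' protocols. The authors deposited 1 table whose name says TPM. Its columns total 1000000, and within each the values step by the size of a single read, so the deposited values were read as RPM, with no length term. Reads recovered with 1 whole total per column were whole for 100% of values within 0.01 of a read. Per the submitters' processing notes, GRCm39 was the build. Aligner, annotation and counter: not given in the sources used here. Floors of a listed 0 cover counting error only, while 95% intervals come from limma and the spread between libraries. Each of the 66 pairs of libraries differed beyond sampling noise (chi-square over its degrees of freedom at least 18.6).

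db/db was compared with WT by limma 3.58.1 under R 4.3.3 (trend in the variance prior) on log2(RPM + 1). The 646 rows averaging 1 RPM or more were tested, two-sided, and called at a Benjamini-Hochberg adjusted p under 0.05. Fold changes are on that scale, which understates changes of low miRNAs. With libraries left out, the filter was applied to those kept. Ratios between members with a mean of at least 10 RPM were compared by exact permutation. The recovered reads were also tested with DESeq2 1.42.0 and with the quasi-likelihood test of edgeR 4.0.16 after TMM; DESeq2 left 476 adjusted p missing. Scripts were tested on simulated data. Figures were drawn with matplotlib 3.10.9 in Python 3.11.15.

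Named miRNAs are the members, further arms of their precursors, neighbours on X, cell markers, and the 3 rows most correlated with each member at a mean of at least 100 RPM. Members and lists were chosen with earlier results of these data known. Sequences of all 9 members were found in RefSeq.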

Additional observations from a re-analysis of the deposited data

Results flagged for a closer look

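In 32 groups of 6 values (9 members and 7 ratios in each genotype), 3 held a library far from the others, where chance gives about 1 in 20, or 1.6 here. miR-497a-5p was 475 RPM in db/db library 6 and at most 235 RPM in the other db/db libraries, a gap of 0.785 of the range. miR-503-5p was 227 RPM in db/db library 3 and at most 103 RPM in the other db/db libraries (0.641 of the range). The log2 ratio of miR-15a-5p to miR-15b-5p was -1.73 in WT library 5, and the next highest WT library had -2.53 (a gap of 0.632 of the range).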

How the results depend on the processing

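Against 1 row called in all, a lower one, limma gave 0 after each of these changes: pseudocounts of 10 or 0.1 RPM, rows unfiltered, rows averaging at least 100 RPM, no trend, WT 4 and db/db 6 left out. It gave 2 after median-of-ratios or TMM scaling, both higher and 0 lower, 9 with the replicate block and 10 once the number groups (1 to 3, 4 to 6) entered as a factor. edgeR called 3 and DESeq2 8. Leaving out 1 library gave 0 to 7. The cause was not tested. Against 0 members, 1 (miR-195a-5p) was called with that factor, with the replicate block (limma adjusted p = 0.0234) and without db/db 5 or WT 1 (0 to 1 with 1 library left out). Same-numbered libraries correlated between -0.023 and 0.59, above 0.1 for all numbers but 4, and 4 of 6 db/db libraries correlated best with their own number, a hint of pairing that the labels do not state. Since number 4 missed 0.1, the numbers were not taken as pairs. The sign turned for miR-322-5p after median-of-ratios (0.042) and TMM scaling (0.026), and for miR-322-3p after these (0.045 and 0.029) and by DESeq2 (0.0090). With 1 library left out these ran from -0.20 to 0.22 and from -0.22 to 0.067, and the log2 ratio of the arms from -0.25 to 0.25. The 7 ratios kept their sign and stayed past no threshold under the other 4 alternatives, the replicate block (exact sign-flip test) included. Depth limits miR-503-3p and the opposite arms, at 0 to 46 reads per library for miR-503-3p.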
